A study of Arabidopsis thaliana with 9 samples.

Results

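The genes described here are 7 Arabidopsis thaliana loci of glycosyl hydrolase family 10, namely AT4G38650, AT4G38300, AT4G33810, AT4G33820, AT4G33830, AT4G33840 and AT4G33860. Each had 1 probe set that the platform annotation assigned to that gene alone, so all 7 of the listed loci were measured, among 16411 genes with such a probe set in the RefSeq table and 38310 probe sets in all. AT4G38650 was selected on its measured rise with estrogen in these arrays, and the other 6 loci were taken as its relatives. Its differences between groups are therefore given as a description, with no test, since that rise used both the treated and the untreated arrays.

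Glycosyl hydrolases of family 10 are mostly endo-xylanases, enzymes that cut the backbone of xylan. Xylan is the main hemicellulose of the secondary walls that line xylem vessels and fibres in plants such as Arabidopsis. Beta-xylosidases then release xylose from the ends of the cut chains, while glycosyltransferases such as IRX10 build the backbone in the Golgi. The names in the annotation used here give the 7 members by locus only, and enzyme activity was not measured.

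All arrays held RNA of Arabidopsis suspension culture cells of the line Alex (background Col-O), which were shaken in the dark and carried estrogen-inducible LHW and T5L1-GFP. The proteins LHW and T5L1, which belong to the bHLH class of transcription factors, bind DNA as a dimer in the young vascular tissue, and the study sought their downstream genes. The 3 groups were cells after 12 h with 5 µM estrogen, cells after 12 h without estrogen, and cells at 0 h, with 3 arrays each. Every group carried the same inducible genes, and no group lacked them, so what estrogen, LHW or T5L1-GFP did on its own cannot be told apart. Whether the replicates were separate cultures is not stated in the labels, and the spread behind each p-value may therefore be technical. A culture holds many cells, and a level that is lower because fewer cells express a gene cannot be told apart from less RNA per cell.

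Values were log2 signals, on which a difference of 1 is a doubling. Arrays have no read depth, and their number limits the precision. The array's 23 background rows, which hold values for replicates 1 and 2, centred on a median log2 signal of 4.20, with row means of 1.20 to 7.93, so a level inside that range is not shown to be clear of background. Replicate 3 stood apart in each group, with equal values on 2 or 3 of its arrays for 37.6% of all probe sets. The same held for 5 of the 7 members, of which AT4G33830 and AT4G33840 had a single value on all 3 arrays of that number. LHW, the measured one of the 2 induced genes, had log2 signals of 10.72, 11.05 and 11.24 with estrogen, against 8.72, 8.60 and 8.14 without it and 8.60, 8.71 and 8.22 at 0 h. Every estrogen-treated array thus lay above the other arrays for LHW. T5L1 had no probe set of its own and was not analysed here.

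**Figure D1:**
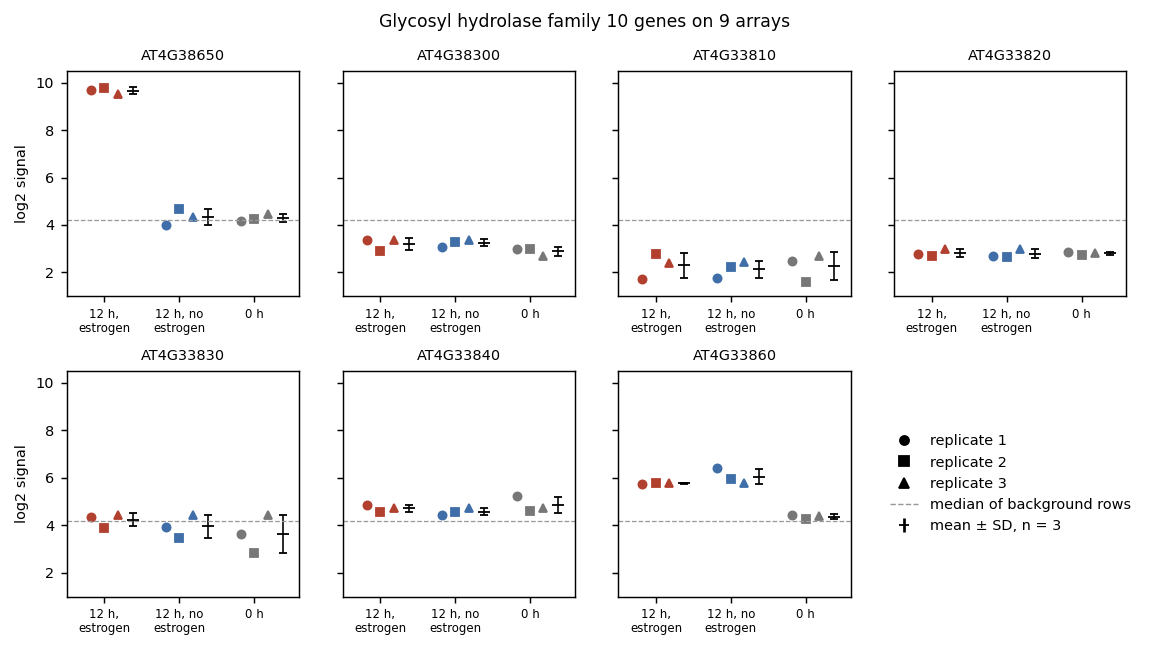
Log2 signal (vertical axis) of the 7 family 10 genes on each of the 9 arrays, with cells after 12 h with estrogen, 12 h without estrogen and 0 h from left to right. Symbols mark the replicates, bars the mean ± SD (n = 3), and the dashed line the median of the background rows (4.20). AT4G38650 lies at 9.52 to 9.78 with estrogen, far above its other 6 arrays, and AT4G33860 is higher in both 12 h groups than at 0 h.

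The comparison of 12 h cells with and without estrogen asked which members responded to induction. AT4G38650 had log2 signals of 9.68, 9.78 and 9.52 in cells with estrogen, against 4.01, 4.68 and 4.34 in cells without estrogen at 12 h and 4.18, 4.25 and 4.48 at 0 h. The estrogen-treated arrays were high and close together, and the 6 other arrays were low in both groups. The means were 9.66 ± 0.13 with estrogen, 4.34 ± 0.33 without and 4.30 ± 0.16 at 0 h (SD, n = 3). The gain over cells without estrogen was 5.68, 5.11 and 5.18 in replicates 1, 2 and 3. Among all probe sets 6 had a larger mean rise, in 4 distinct profiles, and none of those 6 was assigned to a single gene.

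The level with estrogen lay above all 23 background rows. Without estrogen and at 0 h AT4G38650 lay above 12 of the 23, close to the median row, so its transcript was not shown to be present in those cells. The fitted difference with estrogen, 5.32 (SE 0.20), is therefore uncertain in size, since the low level may be background. Without estrogen the gene differed from 0 h by 0.04 (SE 0.20), and those groups overlapped. That difference is also a description only, since the untreated arrays entered the choice of the gene. It was -0.27 after quantile normalization of the arrays and -0.43 after centring each array on its median. Relative to the median difference of all probe sets it was -0.08 in the deposited signals and -0.21 in quantile-normalized ones. Centring shifts all differences by the same amount and cannot change that relative value.

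None of the 6 relatives was called with estrogen by limma at an adjusted p under 0.05, in a comparison in which 0.0392% of all probe sets were called. AT4G38650, chosen for that rise, is left out of that count. Differences of the 6 ran from -0.28 to 0.29 on the log2 scale, all with adjusted p = 1, and none had an unadjusted p under 0.05. For each of the 6 the arrays with and without estrogen overlapped, where the groups did not overlap for 4.28% of all probe sets. For 5 of the 6, all but AT4G33810, equal values in replicate 3 fixed that overlap, so it says nothing about a response. In replicates 1 and 2 AT4G33860 was lower with estrogen (5.72 and 5.78) than without (6.41 and 5.94). The 95% intervals reached from -0.70 to 1.19 in all, and so leave room for changes of that size in single genes. In replicate 3 the difference was exactly 0 for 5 of the 7 members, all of them relatives, which draws their mean differences toward 0. In replicates 1 and 2 alone the differences of the 6 ran from -0.42 (AT4G33860) to 0.43 (AT4G33830). None was called there (limma adjusted p at least 0.639).

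**Figure D2:**
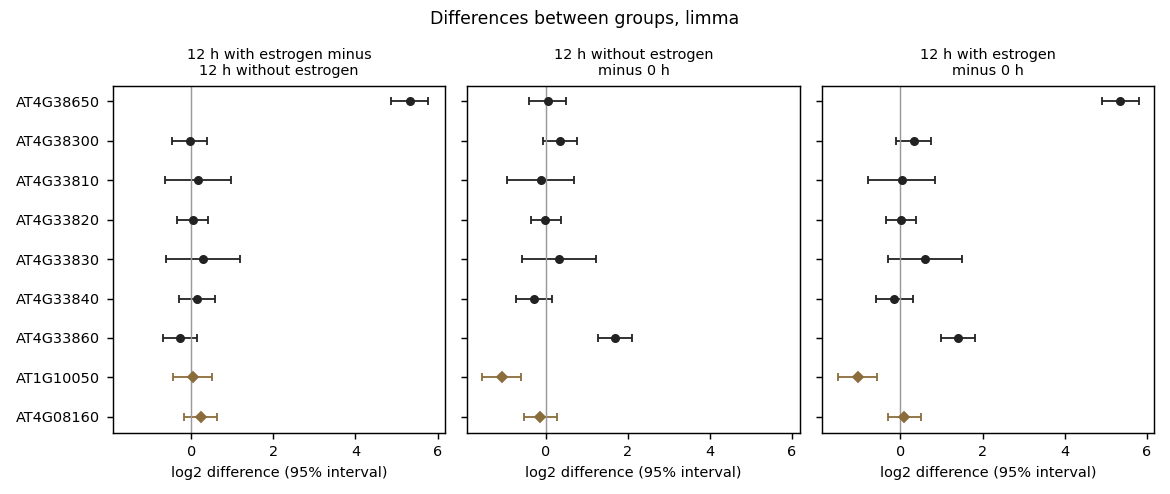
Log2 differences between groups with 95% intervals from limma (horizontal axis) for the 7 members (circles) and for 2 other family 10 genes (diamonds). With estrogen against without, AT4G38650 lies at 5.32 and the other 8 genes between -0.28 and 0.29. Against 0 h AT4G33860 is higher and AT1G10050 lower in both 12 h groups. The intervals of AT4G38650 are descriptive, since it was chosen for its rise with estrogen.

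Of the relatives, 5, namely AT4G33810, AT4G33820, AT4G33830, AT4G33840 and AT4G33860, follow one another on chromosome 4 with no other protein-coding gene between them, in the gene order of the RefSeq annotation. The pseudogene AT4G33850 lies between AT4G33840 and AT4G33860. AT4G38300 and AT4G38650 lie apart from that row, with 35 protein-coding genes between them. Probe sequences were not used here, so signal shared between these near neighbours was not tested.

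Within the row, AT4G33860 was the member called over time in culture in the values as deposited. It had log2 signals of 5.72, 5.78 and 5.79 with estrogen, 6.41, 5.94 and 5.79 without estrogen, and 4.43, 4.25 and 4.39 at 0 h. All 6 arrays at 12 h lay above all 3 arrays at 0 h, and the 12 h groups met at 5.79. Groups without overlap occurred for 46.2% of all probe sets with estrogen against 0 h and for 45.5% without estrogen against 0 h. Cells without estrogen were higher than 0 h cells by 1.69 (SE 0.19, limma adjusted p = 0.000116), a 3.22-fold rise, in 3 of 3 replicate pairs. With estrogen the rise over 0 h was 1.40 (SE 0.19, limma adjusted p = 0.000303), which shares the 0 h arrays with the first.

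The direct difference of AT4G33860 with against without estrogen was -0.28 (SE 0.19, limma adjusted p = 1), with a 95% interval of -0.70 to 0.14. Its 12 h levels lay above 14 of 23 background rows with estrogen and 15 without, and the 0 h level above 12, so the size of the rise is uncertain. Over all probe sets, the median difference without estrogen against 0 h was 0.12 as deposited. It was -0.07 after quantile normalization and -0.35 after centring each array on its median. Relative to that median difference, the gene's rise without estrogen was 1.57 as deposited and 1.38 after quantile normalization. Centring shifts all differences of a comparison by the same amount, so the relative value equals the deposited one and is no separate result. In the comparison with estrogen against 0 h the median shifts were 0.12, -0.08 and -0.40, and the rise relative to them was 1.29, 1.07 and 1.29.

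Of the 6 relatives, AT4G33860 was the 1 called without estrogen against 0 h (called higher), while 39.3% of all probe sets were called, 27.4% higher and 11.9% lower. With estrogen against 0 h, AT4G33860 was the 1 of the 6 relatives called (called higher), while 39.9% of all probe sets were called, 28.2% higher and 11.7% lower. AT4G38650 is not counted in either comparison, since its rise between the treated and untreated arrays chose it. The median difference of the 7 members, AT4G38650 included, was 0.04 without estrogen against 0 h, beside 0.12 for all probe sets. That median is the value of AT4G38650 itself, so it is a description only and does not summarise the relatives.

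The other 5 relatives lay inside the range of the background rows in every group. AT4G33840 ranged from 4.45 to 5.22 over the 9 arrays, with means of 4.71 ± 0.14 with estrogen, 4.57 ± 0.14 without and 4.85 ± 0.33 at 0 h (SD, n = 3). Its highest array was replicate 1 at 0 h. The shared value of 4.72 in replicate 3 fixed the overlap of its groups, which therefore says nothing about a change. In replicates 1 and 2 it had 4.85 and 4.56 with estrogen, 4.45 and 4.55 without, and 5.22 and 4.62 at 0 h. The differences from 0 h were -0.15 (SE 0.20) with and -0.28 (SE 0.20) without estrogen, with limma adjusted p = 0.66 and 0.327. After centring both were called lower (-0.66 and -0.75, limma adjusted p = 0.0417 and 0.0287). There the median difference of all probe sets was -0.40 and -0.35, and 36.6% and 33.0% of all probe sets were called lower.

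AT4G33830 had log2 signals of 4.36, 3.90 and 4.44 with estrogen, 3.94, 3.47 and 4.44 without, and 3.62, 2.82 and 4.44 at 0 h. In replicates 1 and 2 the order was the same, highest with estrogen and lowest at 0 h, and in replicate 3 the 3 arrays shared the value of 4.44. The difference with estrogen against 0 h was 0.61 (SE 0.40, limma adjusted p = 0.296). With the replicate number as a block it was called higher (limma adjusted p = 0.046), as were 34.5% of all probe sets in that fit. It was also called without replicate 3 at 0 h (1.01, limma adjusted p = 0.0476) and with array weights (0.88, limma adjusted p = 0.0343). It was not called in replicates 1 and 2 alone (0.91, limma adjusted p = 0.0842) or with replicate 3 as a batch (limma adjusted p = 0.121), and leaving out single arrays gave 0.20 to 1.01, lowest without replicate 2 at 0 h. After quantile normalization (0.37, limma adjusted p = 0.425) and centring (0.09, limma adjusted p = 0.83) it was not called. Without estrogen the difference from 0 h was 0.32 (SE 0.40, limma adjusted p = 0.628).

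AT4G38300 ranged from 2.68 to 3.36 over the 9 arrays. The arrays without estrogen (3.08, 3.30 and 3.36) lay above those at 0 h (3.0, 3.0 and 2.68), but the difference of 0.35 (SE 0.19) did not pass limma (adjusted p = 0.186). Such separation occurred for 45.5% of all probe sets. With estrogen its arrays (3.35, 2.92 and 3.36) overlapped both other groups. The shared value of 3.36 in replicate 3 fixed the overlap with the arrays without estrogen.

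AT4G33820 ranged from 2.67 to 3.0 and AT4G33810 from 1.62 to 2.78. AT4G33820 differed from 0 h by 0.02 (SE 0.16) with and -0.01 (SE 0.16) without estrogen, limma adjusted p = 0.947 and 0.986. After centring it was called lower (-0.49 and -0.47, limma adjusted p = 0.0158 and 0.0206), close to the median difference of all probe sets. AT4G33810 spread over more than 1 log2 unit among the arrays with estrogen and among those at 0 h, and it was not called in any of the 3 comparisons. Both lay above at most 10 of the 23 background rows in each group, so no transcript of either was shown to be present.

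Other family 10 and xylan genes were taken from lists, and most of their members had no probe set of their own. Of 4 further family 10 loci, AT1G10050 and AT4G08160 were measured, and neither was called with estrogen, where 0.0392% of all probe sets were called. AT1G10050, which the RefSeq table also names ATXYN2, had log2 signals of 9.05, 9.19 and 9.21 with estrogen, 9.06, 9.07 and 9.21 without, and 10.37, 10.47 and 9.71 at 0 h. It was above all 23 background rows in each group, and all 6 arrays at 12 h lay below those at 0 h. Groups did not overlap for 46.2% of all probe sets with and 45.5% without estrogen against 0 h. As deposited, 11.7% and 11.9% of all probe sets were called lower in these comparisons. It fell by 1.07 without estrogen (-1.07, SE 0.21, limma adjusted p = 0.00304) and by 1.04 with estrogen (-1.04, SE 0.21, limma adjusted p = 0.00352) relative to 0 h. The fall without estrogen was -1.31 and -1.41 in replicates 1 and 2 and -0.50 in replicate 3.

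With against without estrogen AT1G10050 differed by 0.04 (SE 0.21, 95% interval -0.44 to 0.51). AT4G08160, also named ATXYN3, ranged from 2.61 to 3.12 on the 9 arrays and was not called in any comparison. Over time in culture AT4G33860 rose and AT1G10050 fell, while neither was called with estrogen.

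Of 9 genes of xylan breakdown, 2 were measured. AT5G10560, of the beta-xylosidase family, rose by 0.84 (SE 0.14, limma adjusted p = 0.00111) without estrogen and by 0.84 (SE 0.14, limma adjusted p = 0.00111) with estrogen over 0 h. Its log2 signals were 8.86, 8.88 and 8.84 with estrogen, 8.79, 8.84 and 8.97 without, and 8.01, 8.09 and 7.97 at 0 h. The 12 h and 0 h arrays did not overlap, as for 46.2% of all probe sets with and 45.5% without estrogen. Its call ended after centring (0.38 without and 0.32 with estrogen, limma adjusted p = 0.0862 and 0.129) and held after quantile normalization (0.59 and 0.56, limma adjusted p = 0.0154 and 0.0187). Relative to the median difference of all probe sets the rise was 0.72 in both comparisons as deposited. Centring cannot change that relative value, so it does not offset the lost call. AT3G19620, of the same family, ranged from 3.67 to 4.60 and was not called.

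Of 26 genes of xylan synthesis and decoration, 4 were measured and 0 were called in any of the 3 comparisons by limma as deposited. Among all probe sets 0.0392% were called with against without estrogen. Against 0 h, 39.9% were called with and 39.3% without estrogen. GUT2 (IRX10) and GUT1 (IRX10-L), which build the xylan backbone, lay at 8.45 to 9.0 and 8.69 to 9.04 on the 9 arrays, above all 23 background rows. GUT2 differed by 0.06 (SE 0.21) and GUT1 by 0.08 (SE 0.15) with against without estrogen. IRX15 and IRX15-L, needed for normal xylan, were at 2.30 to 2.77 and 4.54 to 5.16. Against 0 h, all 4 were called lower after centring in both 12 h groups, and IRX15-L also after quantile normalization with estrogen (-0.37, limma adjusted p = 0.04). After centring, the median difference of all probe sets was -0.40 with and -0.35 without estrogen. In those fits 36.6% and 33.0% of all probe sets were called lower. GUT2 was then at -0.45 in both comparisons, against 0.07 with and 0.01 without estrogen as deposited. Relative to the median difference it was at -0.04 with and -0.11 without estrogen, values that centring cannot change.

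**Figure D3:**
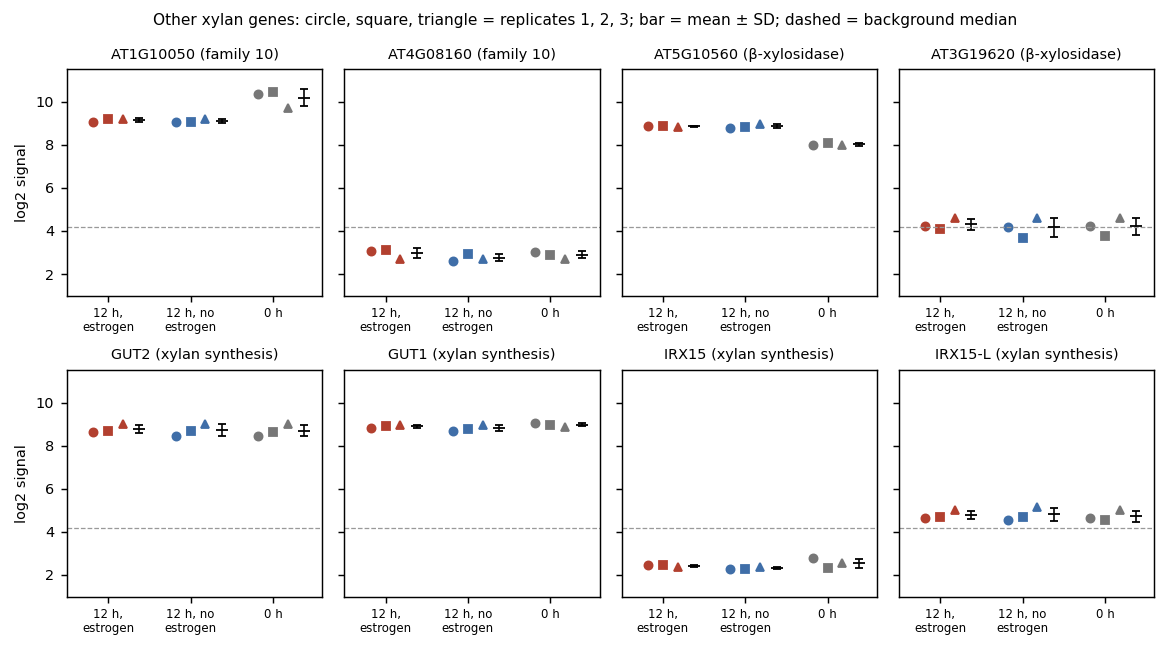
Log2 signal (vertical axis) of 2 other family 10 genes, 2 beta-xylosidase genes and 4 xylan synthesis genes on each of the 9 arrays, for 12 h with estrogen, 12 h without estrogen and 0 h from left to right. Symbols mark replicates, bars the mean ± SD (n = 3) and the dashed line the background median of 4.20. AT1G10050 is lower and AT5G10560 higher in both 12 h groups than at 0 h, and no gene separates the arrays with estrogen from those without. Equal values in replicate 3 fixed that overlap for all of these genes but AT5G10560 and IRX15-L, so for the rest it says nothing about a response.

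Markers of cell types were mostly not measured. None of 20 genes of xylem vessels and secondary walls had a probe set of its own, so whether vessel genes moved with AT4G38650 was not tested. Of 8 phloem, 4 root hair, 4 endodermis and 6 mesophyll genes, 2, 2, 1 and 1 were measured. Of these 0 were called with estrogen, where 0.0392% of all probe sets were called. The phloem, root hair and endodermis markers stayed between 1.92 and 4.56 on all arrays, inside the range of the background rows. RCA, the Rubisco activase of photosynthetic cells, had means of 4.97 ± 0.31 with estrogen, 4.72 ± 0.50 without and 7.92 ± 0.35 at 0 h (SD, n = 3). Without estrogen RCA differed from 0 h by -3.2 (limma adjusted p = 4.39e-05), where 11.9% of all probe sets were called lower. Any relation of that fall to the changes of AT4G33860 and AT1G10050 was not tested.

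The 5 genes whose pattern over the 9 arrays was closest to AT4G38650 were LHW, AT5G66440, AT1G10750, AT1G70550 and AT2G41800. Closeness was the root-mean-square difference between log2 signals, each centred on its own mean, and ran from 1.38 for LHW to 1.68 for AT2G41800. The median over 16721 other probe sets with 1 gene was 2.54, and 7 unnamed probe sets were closer than LHW. The signals were not scaled, so a flat gene lies at a distance set by the rise of AT4G38650 itself. A small distance thus mostly reflects a rise with estrogen, and 2.54 is no independent standard. These genes share the estrogen-treated arrays with the rise that chose AT4G38650, so their levels are given without a test.

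AT5G66440 had 7.0, 6.98 and 5.67 with estrogen, against 4.47, 4.03 and 4.74 without and 4.38, 3.58 and 4.16 at 0 h. Like AT4G38650 it was low in both groups without estrogen, but replicate 3 with estrogen was more than 1 log2 unit under the other 2 arrays. AT1G70550, a gene of the neprosin-domain (DUF239) family, averaged 7.57 ± 0.43 with estrogen, 5.32 ± 0.28 without and 5.78 ± 0.50 at 0 h (SD, n = 3). AT1G10750 of the same family averaged 7.92 ± 0.18, 6.21 ± 0.22 and 5.27 ± 0.23, and AT2G41800 8.26 ± 0.23, 6.97 ± 0.18 and 4.78 ± 0.42, in the order with estrogen, without estrogen and 0 h. Both were also higher without estrogen at 12 h than at 0 h, with no overlap, whereas AT4G38650 overlapped between those groups. Those groups did not overlap for 45.5% of all probe sets.

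**Figure D4:**
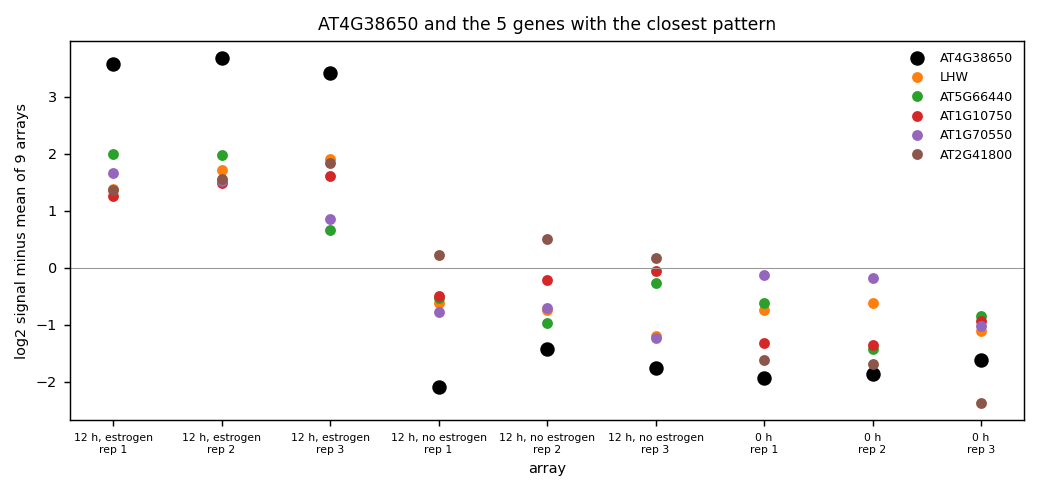
Log2 signal minus each gene's mean over the 9 arrays (vertical axis) for AT4G38650 and the 5 genes closest to it, by array (horizontal axis), with estrogen at left, without estrogen in the middle and 0 h at right. AT4G38650 stands highest on the 3 estrogen-treated arrays, and its 3 arrays without estrogen lie below those of the other 5 genes.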

How the data were processed

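RNA was labelled as sense-strand DNA and hybridised to 1 Affymetrix array per sample, per the labels' protocols. Each deposited value is a log2 signal of a probe set, which the authors computed, per the submitters' processing notes, in Affymetrix Expression Console 1.3. How probes were summarised and arrays normalized is not given in the sources used here. Of 38506 rows, 196 control rows lacked values on some arrays and were left out. The remaining 38310 probe sets were tested as deposited with no filter on low values, so all 7 members were kept. Probe sets were named through the platform annotation (16722 with 1 gene), and RefSeq (TAIR10.1) served for names and gene order.

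Limma 3.58.1 in R 4.3.3 fitted 1 mean per group to all 9 arrays (prior degrees of freedom 3.07), with two-sided tests. Benjamini-Hochberg adjustment ran across the 38310 probe sets, and adjusted p under 0.05 made a call. The fit was tested on simulated data. Named genes were the members, the induced genes, up to 4 per list with the smallest p, and the 5 closest to AT4G38650. Members and lists were chosen with earlier results of these data known. Plots used Python 3.11.15 and matplotlib 3.10.9.

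Replicate numbers recur in each group. Deviations of same-numbered arrays correlated at r = 0.173 to 0.616 in 9 pairs, above the 0.1 taken as the rule for pairing. Arrays of replicates 1 and 2 with unlike numbers also correlated (0.156 to 0.277), so pairing by number is not shown for them. Same-numbered arrays of replicate 3 correlated at 0.445 or more. The main fit used no pairing, since the design text gives no block. Its spread therefore includes the differences between replicates, that of replicate 3 among them. Alternatives were the replicate block, replicate 3 as a batch, replicates 1 and 2 only, the 2 groups alone, quantile normalization, median centring, removal of the dimmest 25%, array weights, a robust prior with an intensity trend, an adjusted p under 0.01 and each array left out in turn.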

Additional observations from a re-analysis of the deposited data

How the results depend on the processing

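AT4G38650 with against without estrogen ranged from 5.16 to 5.49 over 19 alternatives, and over the same range with single arrays left out. It was chosen for that rise. Without estrogen against 0 h the deposited signals gave 0.04, quantile-normalized ones -0.27 and centred ones -0.43. The 6 relatives gave 111 values with against without estrogen, of which 0 were called (limma adjusted p from 0.277 to 1). For AT4G33860 the difference from 0 h was 1.22 to 1.87 without and 0.89 to 1.44 with estrogen, called in all 19 alternatives (limma adjusted p at most 0.00248 and 0.0114). The fall of AT1G10050 was -1.54 to -0.93 without and -1.56 to -0.90 with estrogen, also called in all 19.

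Median centring raised the count of members called to 3 without estrogen against 0 h and to 4 with estrogen against 0 h. It did so by adding AT4G33820 and AT4G33840 as falls. There the median difference of all probe sets was -0.35 and -0.40, and 33.0% and 36.6% of all probe sets were called lower. Array medians over all probe sets were 5.28 to 5.67 at 0 h, 5.83 to 6.09 without and 5.81 to 6.21 with estrogen. Over probe sets with 1 gene they were 5.07 to 5.40, 5.15 to 5.36 and 5.12 to 5.39. Centring used the first median, which rose more at 12 h than the second, and so lowers single genes against 0 h. The count of 4 includes AT4G38650, which was chosen for its rise with estrogen. Of the differences above 0 as deposited, those that became called falls under it were AT4G33820 with estrogen (-0.49), GUT2 (-0.45 in both 12 h groups), EXPA18 (-0.41 without and -0.47 with estrogen) and IRX15-L (-0.38 without and -0.46 with estrogen). Differences already below 0 that became called falls under it were those of AT4G33840, IRX15, GUT1, OPS and CLE45 in both 12 h groups, of AT4G33820 and EXPA7 without estrogen and of GSO1 with estrogen. IRX15-L also turned after quantile normalization with estrogen (-0.37). Of 390 values for members, 379 kept their call or size. Among all 390 values, 33 were uncalled differences that changed sign. With single arrays left out, the count of members called stayed at 1 without and was 2 to 3 with estrogen against 0 h, AT4G38650 included.

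With the replicate block the calls of members changed only for AT4G33830 with estrogen against 0 h (0.61, limma adjusted p = 0.046). Removing the dimmest 25% left out 3 of the 7 members (AT4G38300, AT4G33810 and AT4G33820), which have no value there. The number of arrays and the background rows limit what can be said of the dim members, and no alternative recovers levels under background.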

Other observations

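AT4G38650 was also set beside the genes next to it on chromosome 4, taken by position alone. Of the 5 protein-coding genes on each side, 5 of the 10 had a probe set of their own. None of these 5 was called with estrogen by limma, where 0.0392% of all probe sets were called. AT4G38640 was at 0.06 (SE 0.18), AT4G38660 at 0.23 (SE 0.28), AT4G38670 at 0.21 (SE 0.17), AT4G38690 at -0.01 (SE 0.18) and AT4G38700 at -0.16 (SE 0.16), all with limma adjusted p = 1. AT4G38640 and AT4G38660, the direct neighbours, averaged 9.15 and 4.89 with estrogen, against 9.09 and 4.67 without estrogen and 9.34 and 4.32 at 0 h. AT4G38670 rose by 1.82 without estrogen over 0 h (limma adjusted p = 5.61e-05).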
